A study of Homo sapiens with 2 samples.

Results

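EGFR, the epidermal growth factor receptor, is switched on by ligands such as EGF and HBEGF and passes the signal through the adaptor GRB2 to RAS and the kinases RAF, MEK and ERK. ERK then induces a first wave of genes, among them the transcription factors EGR1 and FOS, and also its own inhibitors, such as the phosphatase DUSP4. PIM1, a serine/threonine kinase that favours survival, is a known target of cytokine and growth factor signalling through STAT factors. These 7 genes (EGF, HBEGF, GRB2, EGR1, FOS, DUSP4 and PIM1) were taken by symbol from a deposited table of 2046 genes, as ligands, adaptor and growth factor-induced outputs of EGFR, and all 7 symbols were found in it.

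The table compared cells of MDA-MB-231, an established triple-negative breast cancer line, with TMEM25 knocked out (TAMER-/- in the labels) against the same line without the knockout (TAMER+/+). Each genotype had 1 library, both from cells grown in DMEM with serum, and the labels name no added growth factor, inhibitor or time point. The labels do not say whether the knockout cells were 1 clone. The headings of the expression, count and ratio columns say which library is the knockout, while those of the log2 columns are the other way round. The table's limits bear on every result: all 2046 genes had a deposited knockout value of at least 1 and a deposited ratio of knockout to wild type of at least 2, so that the direction of the 7 genes was fixed by their being in it. With 1 library per genotype there is no replicate error to set a difference against, and no difference was tested. What follows therefore describes how large the differences were in these libraries, and on how many reads they rested. In bulk RNA a change in the share of cells that express a gene and a change in RNA per cell cannot be told apart.

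Summed over the 2046 genes, reads came to 4138956 in knockout cells and 1046999 in wild-type cells, which is part of each library and not its depth. TMEM25, EGFR and STAT3 were not in the table and were not analysed here, so the knockout itself was not checked. None of 10 markers of MDA-MB-231 and mesenchymal cells was in the table, so the identity of the cells could not be read from them. The line itself was not checked here. Of 12 markers of luminal breast cells, 2 were in the table, TFF1 (5920 in knockout cells, 0.94 in wild-type cells) and TFF3 (127.85 and 3.68). The part of this difference in the results below was not tested. EPCAM, an epithelial gene outside these lists picked after its values were seen, was at 419.58 in knockout cells and 145.74 in wild-type cells. What the EPCAM values mean for the identity of the line was not tested. Leukocyte markers gave 1 of 10 (CD8A, 1.19 and 0.23), endothelial markers 2 of 8 (EMCN, 4.73 and 0.33, and ERG, 1.19 and listed at 0.10 from 0 reads) and fibroblast markers 0 of 10. Heat shock genes, which respond to handling stress as some early response genes do, gave 5 of 13. Their summed values were 4225 in knockout cells and 1885 in wild-type cells, most of it from HSPB1 (3653 and 1669). The median deposited ratio of these 5 genes was 2.52, against 3.33 for all genes in the table, and their part was not tested either. All these marker counts stand beside the 10.1% of all protein-coding genes that were in the table.

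The promoters of 3 of the 7 genes are shown first, because they hold motifs of factors that growth factor signals are known to act on. A CArG box binds serum response factor (SRF), which ERK activates through its partner factors of the ETS family. The CRE, the cyclic AMP response element, binds CREB, and AP-1 sites bind dimers of FOS and JUN. Each sequence covers the 250 bases before the RefSeq transcription start on the plus strand of GRCh38.p14, printed 5′ to 3′. EGR1 lies at chr5:138465229-138465478, with capitals marking, in order, 1 STAT motif (TTCNNNGAA) and 2 CArG boxes. FOS lies at chr14:75278578-75278827, with the core of the CRE, TGACGT, in capitals. EGF lies at chr4:109912633-109912882, with an AP-1 site (TGANTCA) in capitals.
EGR1: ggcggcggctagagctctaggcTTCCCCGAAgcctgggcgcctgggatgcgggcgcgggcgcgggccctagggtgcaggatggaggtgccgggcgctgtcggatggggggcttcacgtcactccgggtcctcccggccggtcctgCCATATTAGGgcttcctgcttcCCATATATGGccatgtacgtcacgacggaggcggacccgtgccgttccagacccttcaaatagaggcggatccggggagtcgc
FOS: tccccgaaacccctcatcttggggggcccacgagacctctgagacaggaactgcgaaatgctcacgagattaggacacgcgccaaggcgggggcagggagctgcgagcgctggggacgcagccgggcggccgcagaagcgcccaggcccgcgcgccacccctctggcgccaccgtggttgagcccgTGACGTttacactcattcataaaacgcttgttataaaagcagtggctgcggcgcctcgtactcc
EGF: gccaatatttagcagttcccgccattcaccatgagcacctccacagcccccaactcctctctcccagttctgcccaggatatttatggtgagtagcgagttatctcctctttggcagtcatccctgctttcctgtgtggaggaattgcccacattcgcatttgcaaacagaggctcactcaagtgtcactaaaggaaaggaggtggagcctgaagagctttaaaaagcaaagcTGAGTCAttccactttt

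RefSeq promoters, from 250 bases before to 50 bases after the start, were matched for 6 of the 7 genes, all but DUSP4. The 2 CArG boxes of EGR1, CCATATTAGG and CCATATATGG, began 105 and 83 bases before the start, and a CArG box was present in 1.29% of all 35116 promoters of this length. No other of the 6 genes had one in this window. The STAT motif of EGR1, TTCCCCGAA, began 228 bases before the start, and 7.66% of all promoters held this motif. The CRE core, which is part of the full CRE, was searched for after the sequences had been read. It was found in EGR1 at 2 places, 136 and 67 bases before the start, in FOS 64 bases before it, and in 7.98% of all promoters, while the full CRE (TGACGTCA, 1.85% of all promoters) was in none of the 6. The AP-1 site of EGF began 17 bases before the start, and 7.71% of all promoters held one. The binding motif of EGR1 itself (GCGNGGGCG, 9.43% of all promoters) was present in the promoters of EGR1 and GRB2. In GRB2 it overlapped a GC box by several bases. GC boxes (GGGCGG), which bind SP1 and were present in 45.0% of all promoters, numbered 5 in HBEGF, 4 in GRB2, 4 in PIM1 and 1 in FOS. The exact letters CCGGAA, 1 form of an ETS site (17.2%), were in none of the 6. Shorter or other forms of ETS sites were not searched for, so their absence is not shown. The shares were higher over genes in the table, where a gene was counted once if any of its promoters had a match. Of 1610 such genes, 2.05% held a CArG box, 9.13% the STAT motif, 13.4% the CRE core, 2.92% the full CRE, 9.25% an AP-1 site, 22.7% the EGR1 motif, 26.2% CCGGAA and 77.1% a GC box. Both strands were searched for every motif, and a match says only that these letters are there.

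**Figure D1:**
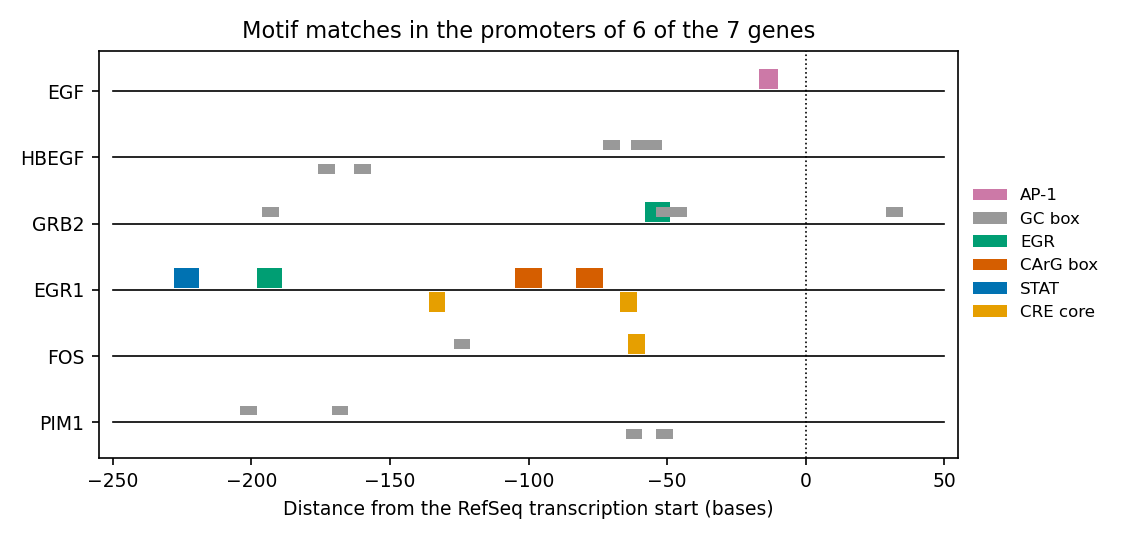
Motif matches in the promoters of the 6 genes found in RefSeq, by distance from the transcription start in bases, with plus-strand matches above each line and minus-strand matches below it and GC boxes drawn thinner. EGR1 carries 2 CArG boxes, 105 and 83 bases before the start, and the EGR1 and FOS promoters carry CRE cores near the start.

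The early response genes EGR1 and FOS and the ERK phosphatase DUSP4 had larger read-count folds than the ligands, the adaptor and PIM1, by a wide margin for EGR1 and DUSP4 and a narrow one for FOS. EGR1, a zinc finger transcription factor induced within minutes by growth factors, had a deposited expression value of 20.41 in knockout cells and 0.20 in wild-type cells. These values were taken to be scaled for gene length and library depth, as an expression value given beside a read count usually is. The unit is not named, and comparisons of level between genes rest on this reading. The EGR1 values came from 1190 reads in knockout cells and 10 reads in wild-type cells. After scaling the reads for depth, the read-count fold of knockout over wild type was 103, with a 95% counting interval of 55.8 to 215. The interval is wide because of the 10 wild-type reads, and it covers counting error only.

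DUSP4, a nuclear phosphatase that removes the activating phosphates from ERK, had a value of 43.09 in knockout cells and 2.61 in wild-type cells. It rested on 4545 and 239 reads, so that its read-count fold of 16.5 was known to within a counting interval of 14.4 to 18.8. FOS, which pairs with JUN proteins in AP-1, had a value of 7.64 in knockout cells and 1.07 in wild-type cells. Its 305 and 37 reads gave a fold of 7.14 (5.06 to 10.3). The counting intervals of EGR1, DUSP4 and FOS did not overlap one another or those of the other 4 genes, although the lower limit of FOS, 5.06, was close to the upper limit of HBEGF, 4.99. With a pseudocount of 5 the log2 ratio of FOS was 1.06, under that of GRB2 at 1.09. In order of log2(value + 1) ratio, EGR1 had rank 45 of the 2046 genes, DUSP4 rank 76 and FOS rank 404. By the ratio in the authors' deposited table their ranks were 74, 278 and 518.

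GRB2, the SH2 and SH3 domain protein that couples the receptor to SOS and RAS, was the most abundant of the 7 genes in both libraries, at 110.73 in knockout cells and 49.41 in wild-type cells. With 6800 and 2621 reads it was also the most precisely measured, and its fold was 2.25 (2.15 to 2.35). It had rank 1319.

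The ligands were low in both libraries. EGF, the founding ligand of the family, is made as a large membrane-bound precursor and had a value of 4.16 in knockout cells and 2.06 in wild-type cells. Its 407 and 182 reads gave a read-count fold of 1.94 (1.62 to 2.32), while the ratio in the authors' deposited table was 2.02, just inside the limit of the table. HBEGF, a heparin-binding ligand that is released from the membrane by metalloproteases and is itself induced by ERK, had a value of 1.72 in knockout cells and 0.58 in wild-type cells. It rested on 75 and 22 reads, with a fold of 2.95 (1.81 to 4.99).

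PIM1 was at 2.92 in knockout cells and 1.4 in wild-type cells, from 147 and 61 reads, with a fold of 2.09 (1.54 to 2.86). The counting intervals of EGF, HBEGF and PIM1 all included 2, and those of EGF, HBEGF, PIM1 and GRB2 overlapped one another, so their folds could not be ordered at this depth. By log2(value + 1) ratio HBEGF, EGF and PIM1 had ranks 1928, 1939 and 1967 of 2046. The added 1 weighs heavily on values as low as those of HBEGF, which by the ratio in the authors' deposited table, 2.97, had rank 1183.

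**Figure D2:**
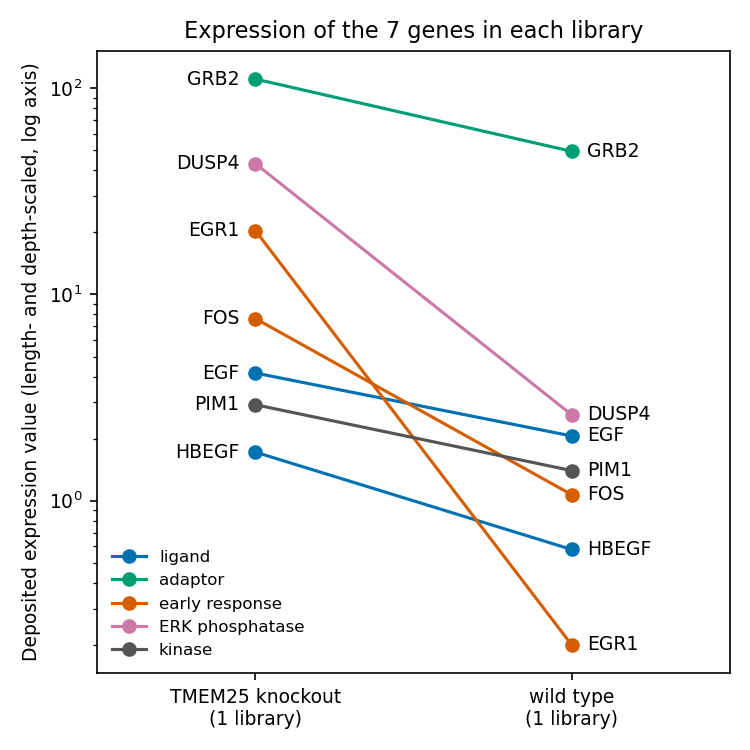
Deposited expression value (log axis) of each of the 7 genes in knockout cells, left, and the wild-type library, right, with 1 library each and therefore no error bars. The EGR1 line is the steepest, at 20.41 and 0.20, while GRB2 leads in both libraries at 110.73 and 49.41.

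The order of the levels differed between the libraries for EGR1 more than for any other of the 7 genes. In the knockout library the values ran from GRB2 through DUSP4, EGR1, FOS, EGF and PIM1 down to HBEGF. In the wild-type library EGR1 was the lowest, at 0.20 below HBEGF at 0.58, and FOS at 1.07 lay below EGF and PIM1. Thus EGR1 and FOS were above both ligands in knockout cells, with 20.41 and 7.64 against 4.16 for EGF and 1.72 for HBEGF. In the wild-type library, at 0.20 and 1.07, both were below EGF at 2.06, while FOS was still above HBEGF at 0.58.

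Set beside the whole table, the 7 genes were not all large differences. On the log2(value + 1) scale, 4 of the 7 (EGR1, DUSP4, FOS and GRB2) passed 2-fold, higher in knockout cells, where 80.6% of all genes in the table were. Of the 7, 3 were at least 4-fold higher (EGR1, DUSP4 and FOS), where 21.3% of all genes were. The counting interval lay wholly above 2-fold for 4 of the 7, where it did for 76.5% of all genes. All 7 had a deposited ratio of at least 2, as did 100% of the table by its limits. The median log2 ratio of the 7 genes was 1.15, against 1.33 for all genes, and their median deposited ratio was 2.97, against 3.33. The log2 ratios were 4.16 for EGR1, 3.61 for DUSP4, 2.06 for FOS, 1.15 for GRB2, 0.78 for HBEGF, 0.75 for EGF and 0.71 for PIM1. When the ratios were centred on the median of all genes in the table, the log2 ratio of GRB2 was -0.18 and only EGR1 and DUSP4 stayed at least 2-fold higher.

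**Figure D3:**
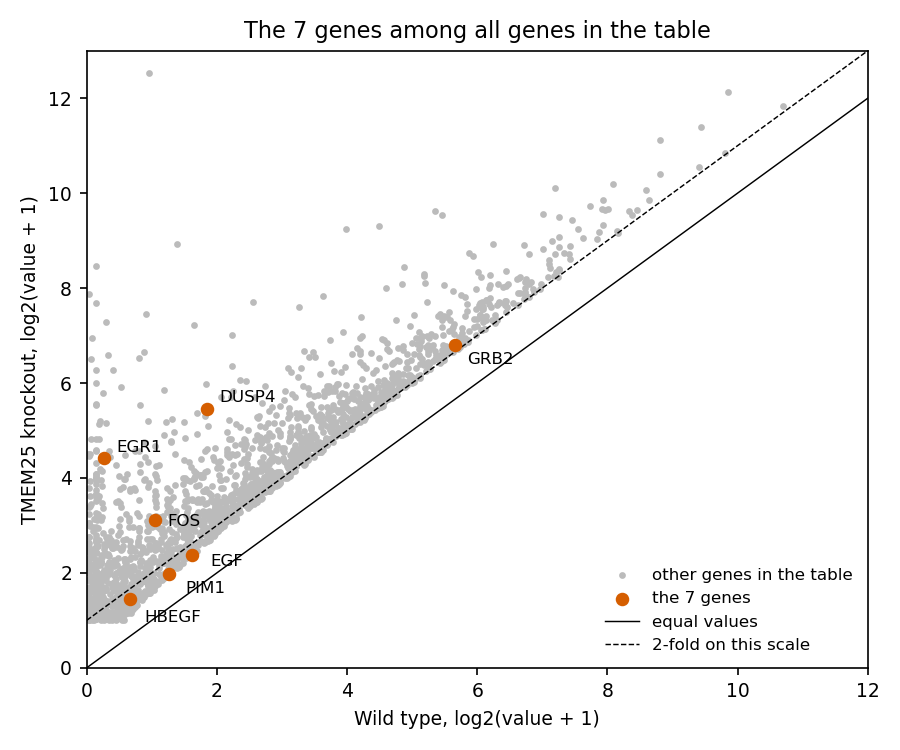
Values of the knockout library (vertical) against the wild-type library (horizontal) on the log2(value + 1) scale for the 2046 genes, with the 7 genes in orange, a solid line at equal values and a dashed line at 2-fold. EGR1 and DUSP4 lie far above the dashed line, while EGF, HBEGF and PIM1 lie under it, at log2 ratios of 0.75, 0.78 and 0.71.

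The rest of the route from EGFR to ERK was followed with 10 lists of 117 genes, ordered from the cell surface to the nucleus. Of these genes 33 (28.2%) were in the table, where 10.1% of all protein-coding genes were. The 7 genes are among the 33 by selection, and the lists were chosen with earlier results of these data known. The 10.1% counts genes whether or not these cells express them, so the shares are no test of the pathway. On the log2(value + 1) scale 26 of the 33 were at least 2-fold higher, a share close to the 80.6% of all genes in the table, and the counts of single lists below stand beside that same share. Without the 7 genes the counts were 26 of 110 (23.6%) in the table and 22 of the 26 at least 2-fold higher, with a median log2 ratio of 1.24. Genes outside the table were not analysed here, and which genes could have entered it is not known.

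At the cell surface, EGF and HBEGF of 7 EGFR ligands (28.6%) were in the table, beside 10.1% of all protein-coding genes. None of 8 ERBB receptors and neuregulins or of 8 sheddases and their regulators was. Of 19 adaptors and RAS regulators, GRB2 and NRAS (10.5%) were in the table. Absence from the table says nothing about the level of a gene. NRAS, a RAS GTPase, had a value of 96.46 in knockout cells and 15.92 in wild-type cells, with a read-count fold of 6.06 (5.70 to 6.45).

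Further down, 6 of 13 RAF, MEK and ERK kinases, scaffolds and downstream kinases were in the table, and 5 of the 6 were at least 2-fold higher, beside 80.6% of the table. MAPK3, which encodes ERK1, had a value of 111.57 in knockout cells and 32.65 in wild-type cells, with a fold of 3.40 (3.17 to 3.66). MAP2K2, which encodes MEK2, was at 112.77 and 52.22, with a fold of 2.16 (2.03 to 2.29). The scaffold KSR1 (6.23 in knockout cells, 0.43 in wild-type cells) had a fold of 17.0 (11.9 to 25) from 32 wild-type reads. RPS6KA2 and RPS6KA3, members of the RSK family of kinases that ERK activates, had folds of 15 (8.41 to 29.5) and 39.0 (25.9 to 64.6) from 12 and 21 wild-type reads. RPS6KA1, of the same family, was at 22.44 in knockout cells and 10.77 in wild-type cells, with a fold of 2.08 (1.88 to 2.31). None of the 6 genes listed for SRF and its partner factors was in the table.

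Immediate early genes gave 12 of 27, of which 11 were at least 2-fold higher, beside 80.6% of the table, and 9 had a counting interval above 2, beside 76.5%. Their median log2 ratio of 1.15 was below the 1.33 of all genes. EGR1 had the highest fold of them and NR4A2, an orphan nuclear receptor, the next, at 22.66 in knockout cells and 0.68 in wild-type cells, with a fold of 33.9 (24.1 to 49.1). EGR3, a close relative of EGR1, was at 1.46 and 0.16, with a fold of 8.50 (4.57 to 17.5) from 11 wild-type reads. The KLF2 fold was 4.92 (3.11 to 8.13). JUN and JUND, the listed partners of FOS in AP-1 that were in the table, differed less than FOS itself. JUN was at 22.24 in knockout cells and 10.62 in wild-type cells, with a fold of 2.10 (1.90 to 2.31), and JUND at 160.3 and 78.08, with a fold of 2.05 (1.96 to 2.15). Those intervals lay below the FOS interval of 5.06 to 10.3. The FOS relatives FOSB and FOSL2 had folds of 3.16 (2.03 to 5.09) and 3.18 (2.88 to 3.53). IER3, NR4A1 and ZFP36 had folds of 2.17, 2.33 and 2.19. For NR4A1 the deposited values of 8.95 and 3.08 gave the larger ratio of 2.91 in the authors' deposited table.

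ERK feedback inhibitors gave 6 of 16, of which 5 were at least 2-fold higher, beside 80.6% of the table, with a median log2 ratio of 1.55, against 1.33 for all genes. DUSP4 had the highest fold, and its interval of 14.4 to 18.8 lay above those of all other list members in the table. DUSP10, a phosphatase that acts mainly on p38 and JNK, was at 15.01 in knockout cells and 2.14 in wild-type cells, with a fold of 6.40 (5.198 to 7.90). DUSP1, the early-induced nuclear phosphatase, was at 13.19 and 2.81, with a fold of 4.69 (3.74 to 5.93). DUSP5, a nuclear ERK phosphatase, and SPRED2, which restrains RAF activation, had folds of 2.46 (2.13 to 2.84) and 2.44 (2.22 to 2.68). DUSP2 (1.29 in knockout cells, 0.60 in wild-type cells) had a fold of 2.22 with an interval of 1.22 to 4.23.

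Later ERK output genes gave 3 of 10. SPHK1, a sphingosine kinase, was at 10.18 in knockout cells and 2.61 in wild-type cells, with a fold of 3.56 (2.81 to 4.56). PLAUR, the urokinase receptor, and ETV4, an ETS transcription factor, had folds of 3.55 (2.35 to 5.53) and 3.64 (1.79 to 8.13), the second from 10 wild-type reads. Of the 3 PIM kinases, PIM3 was in the table beside PIM1, at 71.76 in knockout cells and 27.99 in wild-type cells, with a fold of 2.57 (2.39 to 2.75). The PIM3 value was far above that of PIM1 (2.92 and 1.4) in both libraries.

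**Figure D4:**
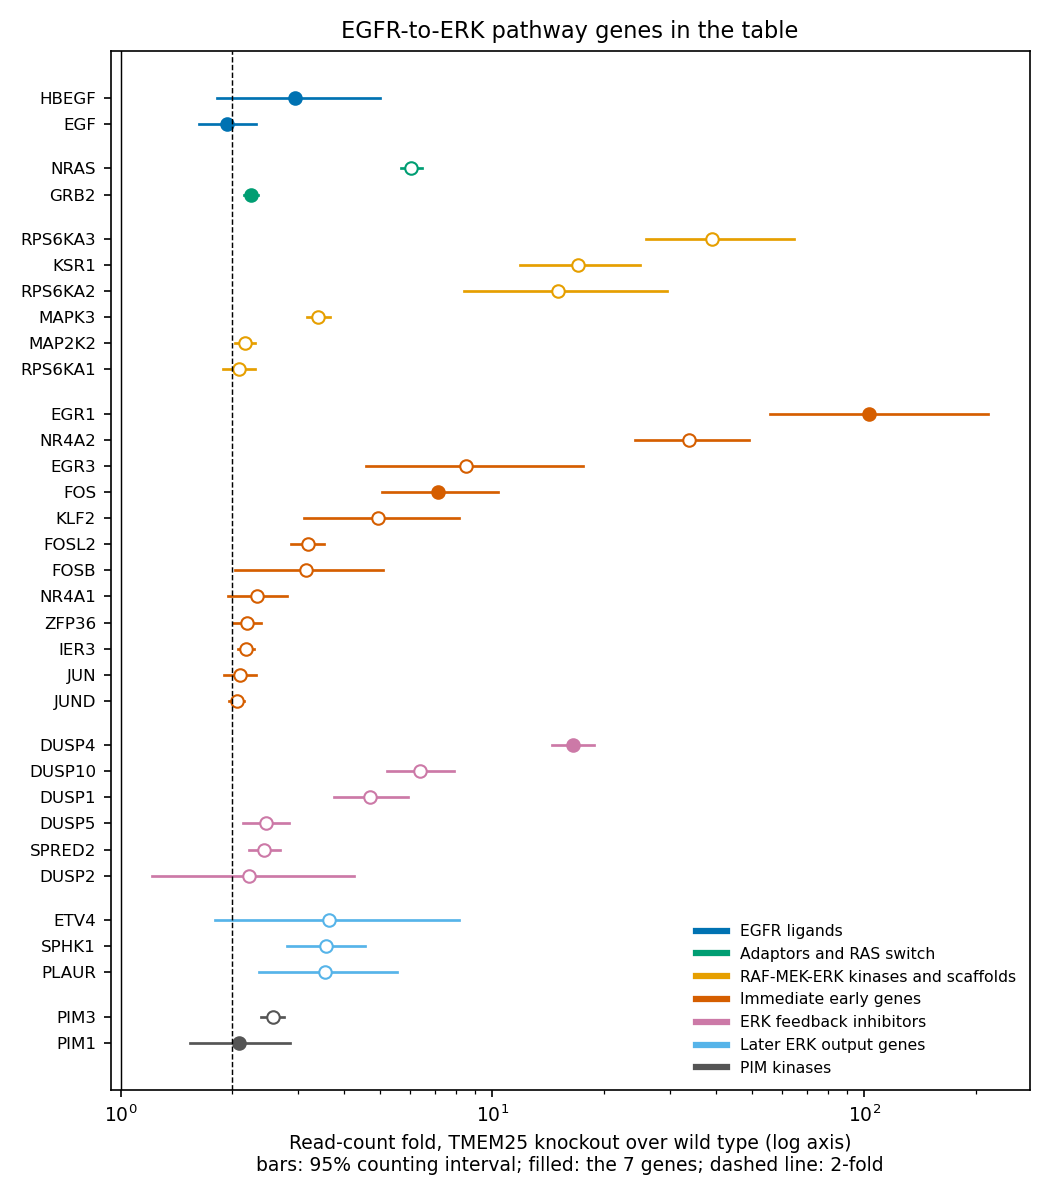
Read-count fold of knockout over wild type (log axis) with its 95% counting interval for the 33 pathway genes in the table, grouped by list, with the 7 genes filled and a dashed line at 2-fold. EGR1 lies at 103, and DUSP4 at 16.5 leads the ERK feedback inhibitors.

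The 2 genes nearest to each of the 7 by level in both libraries were found by distance on the log2(value + 1) scale, over these 2 libraries only. GPER1, a G protein-coupled estrogen receptor (20.62 in knockout cells and 0.28 in wild-type cells, distance 0.09), and AKR1C2, an aldo-keto reductase (22.58 and 0.27), were nearest to EGR1. UPK2, a uroplakin (38.33 and 2.53), and TBX2, a T-box transcription factor (40.55 and 2.24), were nearest to DUSP4. GKAP1 (7.62 and 1.03) and ANKRD34B (7.55 and 1.02) were nearest to FOS, and ECHS1 (107.85 and 49.67) and MZT2B (112.14 and 51.15) to GRB2. TBX6 (4.06 and 1.97) and LOC101928589 (4.17 and 2.03) were nearest to EGF, SETBP1 (1.70 and 0.65) and LOC391322 (1.67 and 0.63) to HBEGF, and INPP5F (2.93 and 1.42) and TMEM231 (2.95 and 1.47) to PIM1.

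The deposited value and the read count gave nearly the same fold for 6 of the 7 genes. The factor that scales the reads was set from the values and reads of the table itself, so this closeness is no independent check. Reads per unit of expression were 1.16 times as high in knockout cells as in wild-type cells over 1133 well-covered genes, and this ratio lay between 1.15 and 1.17 for HBEGF, GRB2, EGR1, FOS, DUSP4 and PIM1. It was 1.11 for EGF, for which the read-count fold of 1.94 was thus below the ratio of 2.02 in the authors' deposited table. In GENCODE 29 on GRCh38, EGF lies on chromosome 4 (109912884 to 110012266, plus strand), EGR1 on chromosome 5 (138465490 to 138469315, plus), HBEGF on chromosome 5 (140332843 to 140346631, minus) and PIM1 on chromosome 6 (37170203 to 37175426, plus). DUSP4 lies on chromosome 8 (29333064 to 29350668, minus), FOS on chromosome 14 (75278774 to 75282230, plus) and GRB2 on chromosome 17 (75318076 to 75405709, minus). In this annotation no exon of the 7 genes overlapped an exon of another gene on either strand.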

How the data were processed

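RNA from 1 knockout and 1 wild-type library of MDA-MB-231 cells was sequenced. CASAVA 1.4, HISAT2 2.0.4 and the build GRCh38.p12 are named in the submitters' processing notes. The counting tool, the annotation and any use of strand were not stated. Per the file headers, the authors deposited an expression value for each library, read here as a signal scaled for length and depth. They also deposited read counts, taken as estimated counts since 43.7% of the knockout and 40.7% of the wild-type counts are not whole. The deposited ratio is that of the authors' expression values, knockout over wild type. The log2 columns that the authors deposited have crossed headers and were not used.

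The log2 ratio was computed as log2((knockout + 1) / (wild type + 1)), and a gene was counted at 2-fold or 4-fold by size alone. For the read-count fold, the ratio of reads was divided by 1.155 to adjust for depth. That factor is how much higher reads per unit of expression were in the knockout library, as a median over 1133 genes with at least 100 reads in both libraries. The 95% interval of the fold is the exact conditional binomial (Clopper-Pearson) interval on rounded counts, and it covers counting error only, with no molecular identifiers to count molecules. A count of 0 was taken as 3 reads. The interval and the motif search were checked on made-up data. The 7 genes, lists, markers and alternatives were chosen with earlier results of these data known. Genes named are the 7, all pathway list genes in the table, the 2 nearest genes of each of the 7, markers in the table and EPCAM. Motifs were searched in RefSeq promoters (GRCh38.p14). Python 3.11.15, pandas 2.3.3 and scipy 1.17.1 were used.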

Additional observations from a re-analysis of the deposited data

How the results depend on the processing

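All alternatives to the pseudocount of 1 were planned, and the search for the CRE core was added after seeing the sequences. Of the 7 genes, 4 passed 2-fold, against 6 by read counts, 6 with a pseudocount of 0.1, 7 by the ratio as deposited and 2 after centring on the median. Of the pathway list genes 26 passed, against 15 with a pseudocount of 5, 7 after centring and 8 at 4-fold, and of all genes 1650, against 844, 279 and 436. The lower counts follow from the stricter rules, and centring takes the one-sided limits of the table as a shift between libraries. After centring, the log2 ratios were 2.83 for EGR1, 2.28 for DUSP4, 0.73 for FOS, -0.18 for GRB2, -0.54 for HBEGF, -0.57 for EGF and -0.62 for PIM1. GRB2, HBEGF, EGF and PIM1 thus changed sign. By the ratio as deposited they were 6.67 for EGR1, 4.05 for DUSP4, 2.84 for FOS, 1.57 for HBEGF and 1.01 for EGF. By read counts they were 6.69 for EGR1, 4.04 for DUSP4, 2.83 for FOS and 1.56 for HBEGF. With a pseudocount of 0.1 they were 6.10 for EGR1, 3.99 for DUSP4 and 2.73 for FOS, and with a pseudocount of 5 they were 2.29 for EGR1, 2.66 for DUSP4, 1.09 for GRB2, 1.06 for FOS and 0.38 for EGF. With that pseudocount DUSP4 was above EGR1 and GRB2 above FOS. No paired analysis was possible because each genotype had 1 library, and for the same reason no library could be left out. Depth limits EGR1, HBEGF and FOS most, with 10, 22 and 37 wild-type reads.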

Other observations

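The neighbourhoods of GRB2, EGR1, FOS, HBEGF, DUSP4 and PIM1 were read from GENCODE 29 on GRCh38 as the 5 nearest protein-coding genes on each side. Of all protein-coding genes, 10.1% were in the table. Around GRB2, 4 of 10 neighbours were in it, namely TMEM94, CASKIN2, TSEN54 and LLGL2. Around EGR1, GFRA3 and REEP2 were in the table, and around FOS, BATF and FLVCR2 were, 2 of 10 in each case. The neighbours of HBEGF, DUSP4 and PIM1 gave 0 of 10 each. BATF, among the 5 nearest protein-coding genes on one side of FOS but not necessarily next to it, encodes a transcription factor that pairs with JUN proteins as FOS does.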
